A study of Mus musculus with 12 samples.

Results

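The genes described here encode the proteins of the cytosolic ribosome. They were chosen from the count table by annotation alone: protein-coding genes of the GRCm38 annotation with a symbol that starts with Rpl or Rps and a digit, together with Rplp0, Rplp1, Rplp2, Rpsa and Rack1, leaving out the S6 kinase genes, symbols that mark pseudogenes and 1 further gene that is not reported here. This gave 84 of the 18911 genes in the table, of which 50 belong to the large (60S) subunit and 34 to the small (40S) subunit by name. Another 2 genes of the annotation that meet the rule, Rpl10l and Rpl39l, were not analysed here. All 84 passed the filter on low counts. Rps19bp1 meets the rule by its name, although it is known as a binding protein of Rps19 and not as a part of the ribosome. No measured value entered the choice.

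Ribosomal proteins are needed in equal numbers and assemble with ribosomal RNA in the nucleolus, so their mRNAs are usually abundant and present at similar levels in dividing cells. Most of these mRNAs begin with a run of pyrimidines, the 5′ terminal oligopyrimidine (TOP) motif, through which mTORC1 and Larp1 control their translation. In neural progenitors, as in other proliferating cells, ribosome production supports growth and division.

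The RNA came from neural progenitor cells (mNPCs) that were cultured from the hippocampus of newborn (P0) C57BL/6J pups, with 3 libraries for each of 4 genotypes. Kmt2a encodes a histone methyltransferase, and the LSL allele carries a loxP-stop-loxP cassette in intron 1 that ends its transcript early. Kmt2a+/+ cells have both alleles intact and no Cre. Kmt2a+/LSL cells are heterozygous for the cassette and have no Cre. Nes-Cre+/- Kmt2a+/+ cells carry the nestin-Cre transgene with both alleles intact, and serve as Cre controls. Nes-Cre+/- Kmt2a+/LSL cells carry the cassette and nestin-Cre, which is expressed from a nestin promoter in cells of the nervous system and removes the cassette, and are called restored here. The labels number the libraries and do not say whether each came from a different pup, so p-values measure the spread between these samples only.

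Annotated transcription starts give a first view of what the members share. RefSeq promoter sequences (GRCm38.p6) were found for 64 of the 84 members. Each was searched in the 30 bases around the start, 15 before it and 15 from it onwards, for the longest unbroken run of C and T on the sense strand. A run of 6 or more was found in 38 of the 64 (59.4%), against 32.7% of all 27025 genes with a promoter sequence, and a run of 10 or more in 21 (32.8%, against 6.25% of all). Long runs were found in 16 of 38 large-subunit genes and 5 of 26 small-subunit genes. The letters CCGGAAG, the core of ETS factor sites, stood on either strand within the 300 bases (250 before and 50 after the start) of 24 members (37.5%, against 9.93% of all genes). The same share was 36.8% in mitochondrial ribosomal protein genes, for which a pyrimidine run of 10 or more was found in 8.82%. Such matches describe the letters only. Windows of 8 members are shown because these genes carry results below, or because their runs show the range of lengths, with the longest run in capitals.
Rpl7a, chr2:26910792-26910821, plus strand: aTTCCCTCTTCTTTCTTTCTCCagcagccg
Rack1, chr11:48800345-48800374, plus strand: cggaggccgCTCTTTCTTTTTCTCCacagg
Rpl38, chr11:114668565-114668594, plus strand: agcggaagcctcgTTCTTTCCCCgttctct
Rpl22l1, chr3:28805493-28805522, plus strand: gtgcggcgcaagcccgTTCTCTTCCCacgg
Rps27, chr3:90213634-90213663, minus strand: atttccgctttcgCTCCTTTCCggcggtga
Rps27rt, chr9:114982725-114982754, minus strand: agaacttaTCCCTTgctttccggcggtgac
Rpl39, chrX:37085208-37085237, minus strand: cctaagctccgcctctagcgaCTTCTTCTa
Rpl10, chrX:74270801-74270830, plus strand: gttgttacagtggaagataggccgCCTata
The run spans the start in Rpl7a, Rack1, Rpl38 and Rps27, whereas the window of Rpl10 holds no run longer than 3 bases.

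Library totals ranged from 18280008 to 28596919 counts, at which 3 counts correspond to between 0.105 and 0.164 CPM (counts per 1000000 counts of the normalized library). Kmt2a was measured at 166 to 167 CPM in Kmt2a+/LSL, at 281 to 300 in Kmt2a+/+, at 283 to 310 in the Cre controls and at 259 to 284 in the restored libraries. The Kmt2a+/LSL libraries thus did not go against their label. The ranges of the other genotypes overlapped, so this level cannot tell their labels apart. All 8 neural progenitor markers were detected, with summed levels of 5910 to 14300 CPM per library, while the microglia and the vascular and fibroblast markers summed to at most 2.14 and 4.17 CPM. The oligodendrocyte lineage markers, mostly Olig1 and Olig2, summed to 1180 to 5330 CPM. The astrocyte markers, mostly Slc1a3 and Aldh1l1, summed to 2380 to 4510 CPM. The neuron markers summed to 1020 to 1920 CPM, nearly all of it Map2 (980 to 1874 CPM). No other neuron marker exceeded 28.2 CPM, the value of Tubb3 in Kmt2a+/+ replicate 2. A library from the Kmt2a+/+ group, replicate 1, stood apart. Its log2 levels had a median correlation of 0.903 with its group, it held 12.7% mitochondrially encoded counts against 3.96 to 10.3% in the other 11 libraries, and it had the lowest summed oligodendrocyte lineage markers, 1180 CPM.

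Ribosomal protein mRNAs took up nearly the same share of the mRNA in each genotype apart from a single restored library. Members made up 2.68 ± 0.437% of the counts in Kmt2a+/+, 2.64 ± 0.0872% in Kmt2a+/LSL, 2.69 ± 0.15% in the Cre controls and 3.05 ± 0.844% in the restored libraries (mean ± SD, n = 3 each). The restored libraries held 2.51, 2.61 and 4.02% in replicates 1, 2 and 3, and the Kmt2a+/+ libraries 2.46, 2.39 and 3.18%. The other 6 libraries lay between 2.52 and 2.81%. Ranges of all 4 genotypes overlapped.

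**Figure D1:**
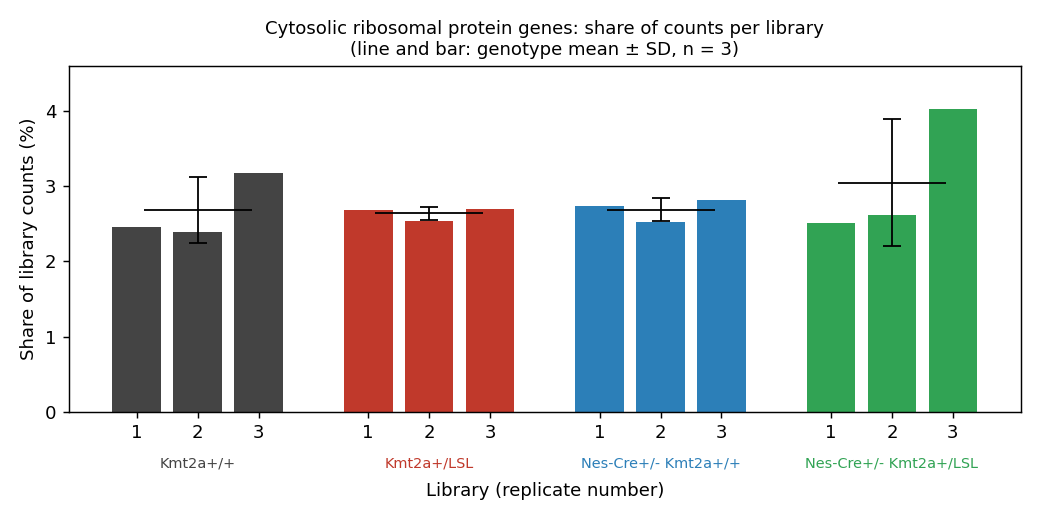
Share of each library's counts (y axis, percent) that falls on the 84 ribosomal protein genes, with 1 bar per library grouped by genotype and the genotype mean ± SD (n = 3) drawn over the bars. Restored replicate 3 reached 4.02%, while the other 11 libraries lay between 2.39 and 3.18%.

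Levels between genes were compared per length, as counts per kilobase of the median protein-coding transcript scaled to 1000000. On this scale the members summed to 58130 ± 9805 (SD over 12 libraries). The highest levels were those of Rplp0 (2324 ± 569.7), the base of the ribosomal stalk that recruits elongation factors, of Rps2 (1901 ± 400.2) and of Rplp1 (1873 ± 582), the stalk's acidic protein. Rps2 and Rplp1 differed by less than the SD of either gene, and Rplp0 lay above Rps2 by more than the SD of Rps2 but less than its own. Rplp2, the partner of Rplp1 in the stalk, had 800 ± 283. Rack1, a signalling scaffold on the head of the small subunit, had 695 ± 150.3, and Rpsa, a small-subunit protein also known as the laminin receptor, had 443 ± 114. The lowest levels were those of Rpl3l (0.276 ± 0.207), the muscle paralog of Rpl3, and of Rps12 (2.52 ± 1.94), and these means differed by more than the SD of either gene. With the longest transcript in place of the median, Rplp1 had rank 1 and Rplp0 rank 5, while Rpl3l and Rps12 remained lowest. Most counts of Rps12-like sequence were assigned to near-identical copies of Rps12, described below.

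The spread of members between libraries of a genotype differed between the genotypes. Within Kmt2a+/LSL and within the Cre controls, the median SD of a member's log2 CPM was 0.0875 and 0.0930. It was 0.534 in Kmt2a+/+ and 0.522 in the restored libraries. For 11411 other protein-coding genes with a mean count of at least 50, the same medians were 0.155, 0.117, 0.595 and 0.234. Among members with a mean count of at least 50, the spread pooled over the genotypes was smallest for Rpl6 (0.105), Rpl7 (0.127) and Rps4x (0.132). It was largest for Rps29 (0.887), Rps27l (0.87) and Rps26 (0.836). Rpl6 ranged from 553 to 714 CPM over the 12 libraries.

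Restored replicate 3 held the highest value of 52 of the 84 members (61.9%), whereas it held the highest value of 6.39% of the other protein-coding genes. Its members lay a median of 0.71 above the mean of the other 11 libraries on the log2 scale, and 80 of them were above it, while the median of the other protein-coding genes was 0.01. The excess was largest for short transcripts. It was 1.18 in the 15 members under 500 bases, 0.76 in the 35 members of 500 to under 800 bases and 0.48 in the 34 members of 800 bases and over. Other protein-coding genes in these length classes deviated by 0.17, 0.10 and 0.00 (136, 1016 and 10259 genes). Of other TOP mRNAs, 17 of 18 were above the mean of the other libraries there (median 0.33), against 3 to 12 in each other library. Of ribosome biogenesis genes, 28 of 30 were above it (0.21), but Cre control replicate 1 had 29 (0.21) and Kmt2a+/LSL replicate 1 had 26 (0.22). Of mitochondrial ribosomal protein genes, 56 of 77 were above it (0.29), with 26 to 54 elsewhere, and of mTORC1 pathway genes 7 of 14. Its total (22183084 counts), its mitochondrially encoded share (5.69%) and its marker sums lay within the ranges of the other libraries. Pseudogenes of ribosomal proteins took 0.0286% of its counts, the lowest share, against 0.0590 to 0.0970% elsewhere.

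Kmt2a+/+ replicate 1 differed from the others in another way. It held the lowest value of 33 members (39.3%, against 41.6% of other protein-coding genes) and the highest value of 18 (21.4%, against 35.8%). Its members ranged from 2.27 below to 2.50 above the mean of the other libraries. Members with a GC content at or under the median of 51.7% stood a median of 0.41 above that mean, and the 42 members with more GC stood 0.59 below it. Rps14 was measured at 94.9 CPM there and at 375 to 594 in the others. Rps19 had 64.8 CPM against 232 to 497.5, and Rpl18 had 70.2 against 251 to 476. On the other side, Rps27l, a paralog of Rps27 known as a target of p53, had 556 CPM against 65.2 to 147, and Rps26 had 457 against 75.1 to 322.5. In Kmt2a+/+ replicate 3, 61 of 84 members were above the mean of the other libraries, by a median of 0.18, and by 0.43 in those under 500 bases. Other protein-coding genes of that length stood 0.29 above it there, and those of 500 to under 800 bases 0.16. Whether length, GC content or the composition of these libraries contributed to their levels was not tested.

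**Figure D2:**
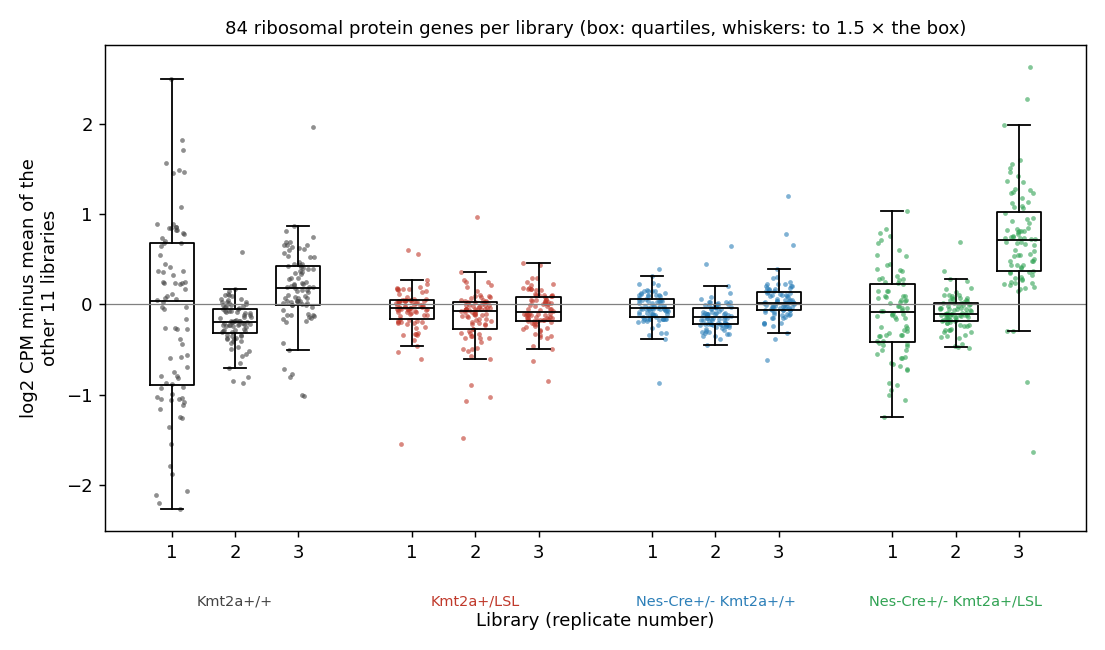
Log2 CPM of each of the 84 members minus the mean of the other 11 libraries (y axis), with 1 point per gene, a box for the quartiles and libraries in order of replicate number within each genotype. The points of restored replicate 3 are shifted up by a median of 0.71, and those of Kmt2a+/+ replicate 1 spread most widely, with quartiles at -0.89 and 0.68.

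**Figure D3:**
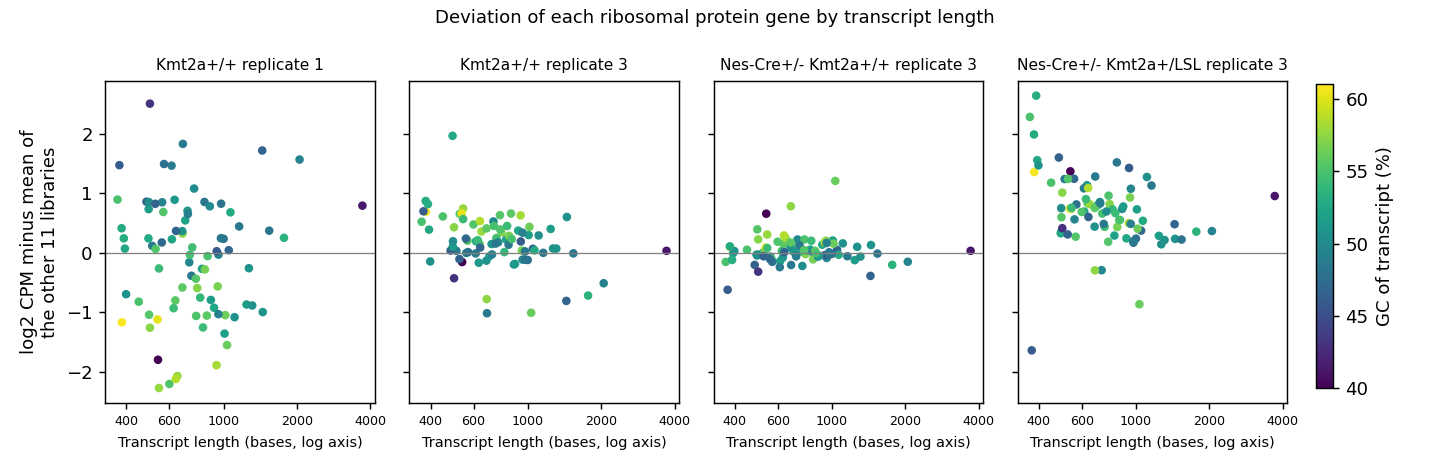
The same deviation (y axis, log2 CPM minus the mean of the other libraries) against transcript length in bases (x axis, log scale), with 1 point per member coloured by the GC content of its transcripts, in 4 of the 12 libraries. In restored replicate 3 the members under 500 bases reach the highest values, in Kmt2a+/+ replicate 1 those rich in GC lie low, and in Cre control replicate 3 most points lie near 0.

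The effect of losing a Kmt2a copy was read from Kmt2a+/LSL against Kmt2a+/+. None of the 84 members was called at an adjusted p under 0.05, nor was any of the 17076 genes tested (0%). The test was edgeR's quasi-likelihood test with Benjamini-Hochberg adjustment, fitted on all 12 libraries. DESeq2's Wald test called 7 genes with no member among them. Kmt2a itself, whose libraries did not overlap, was also not called by edgeR (-0.80 ± 0.125, unadjusted p = 4.34e-05). The lack of calls therefore does not show that nothing changed. At an unadjusted p under 0.05, 1 member (1.19%) was below the threshold, against 1.79% of all genes. Members were lower in 50 and higher in 34 cases, with a median log2 fold change of -0.10, against 0.00 over all genes. The median was -0.16 without Kmt2a+/+ replicate 2 and -0.0393, with 41 of 84 higher, without Kmt2a+/+ replicate 3. The small-subunit genes had a median of -0.17 and the large-subunit genes of -0.06. Libraries did not overlap for 2 members above (2.38%, against 2.30% of all genes) and 2 below (2.38%, against 1.76%).

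The 3 smallest p-values in this comparison were those of Rps12, Rpl30 and Rpl39. Rps12, a small-subunit protein, had 0.487, 0.203 and 0.345 CPM in Kmt2a+/LSL and 0.773, 0.358 and 2.47 in Kmt2a+/+. The groups overlapped, and its log2 fold change was -1.79 ± 0.67 (SE, edgeR, unadjusted p = 0.0204). Rps12 rested on 5 to 72 counts per library, and its near-identical copies held most of the reads. With the copies summed into it, the log2 fold change was -1.10 ± 0.81 (edgeR, unadjusted p = 0.203), and no member was below the threshold, while 1.75% of all genes were. Rpl30, a large-subunit protein, had 198, 200 and 202 CPM in Kmt2a+/LSL, and 629, 193 and 246 in Kmt2a+/+. Its log2 fold change of -0.83 ± 0.40 had an unadjusted p of 0.0593. Rpl39, at the exit tunnel of the large subunit, had 129, 109 and 115 CPM against 398, 110 and 156, with a log2 fold change of -0.91 ± 0.44. In both, Kmt2a+/+ replicate 1 was the high library and the others overlapped. Without that replicate, 4 members were below an unadjusted p of 0.05, while 8.95% of all genes were, and edgeR called 2 genes but no member. The count of members was 10 without Kmt2a+/+ replicate 2 (against 3.52% of all genes), 6 without Kmt2a+/+ replicate 3 (against 6.08% of all genes) and 7 without restored replicate 3 (against 1.71% of all genes).

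The effect of nestin-Cre alone was read from the Cre controls against Kmt2a+/+. No member and no gene (0%) passed in edgeR, and DESeq2 called 3 genes but no member. A single member, Rps27rt, was below an unadjusted p of 0.05 (1.19%, against 1.40% of all genes). Members were lower in 50 and higher in 34 cases, with a median log2 fold change of -0.09 against 0.01 over all genes. Without Kmt2a+/+ replicate 3 the direction turned, with 44 of 84 higher and a median of 0.0329. The median was -0.157 without Kmt2a+/+ replicate 2, -0.0541 without Kmt2a+/+ replicate 1 and -0.0499 without Cre control replicate 2. Libraries did not overlap for 3 members above (3.57%, against 2.82% of all genes) and 1 below (1.19%, against 1.53%). Rps27rt had 5.98, 8.21 and 7.03 CPM in the Cre controls and 26.8, 11.2 and 16.3 in Kmt2a+/+. Its log2 fold change was -1.35 ± 0.46 (edgeR, unadjusted p = 0.0136), and a two-sided exact permutation test gave p = 0.1, the smallest that 3 against 3 libraries allow. Rps27l had 102, 93.9 and 92.6 CPM in the Cre controls against 556, 65.2 and 86.4 in Kmt2a+/+, where a single library set the mean. Its log2 fold change was -1.29 ± 0.63 with all libraries and 0.34 ± 0.21 without Kmt2a+/+ replicate 1. The count of members below the unadjusted threshold was 9 without Kmt2a+/+ replicate 2 (against 4.45% of all genes) and 7 without Kmt2a+/+ replicate 3 (against 5.33% of all genes).

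Removal of the cassette was read from the restored against the Kmt2a+/LSL libraries. No member and no gene (0%) passed in edgeR, and DESeq2 called 7 genes with no member among them. Here too edgeR did not call Kmt2a itself (0.71 ± 0.12, unadjusted p = 0.000125). At an unadjusted p under 0.05, 13 members were below the threshold (15.5%, against 1.61% of all genes), 12 of them higher in the restored libraries (14.3%, against 1.06%) and 1 lower (1.19%, against 0.550%). Members were higher in 74 of 84 cases, with a median log2 fold change of 0.26 against 0.00 over all genes. The 34 small-subunit genes had a median of 0.31 and the 50 large-subunit genes of 0.24. Libraries did not overlap for 8 members above (9.52%, against 3.54% of all genes) and 1 below (1.19%, against 3.57%).

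The count of members below the unadjusted threshold, the median and the balance of directions moved with restored replicate 3. Without it, 1 member was below an unadjusted p of 0.05 while 1.38% of all genes were, the median log2 fold change was -0.03 and 39 of 84 members were higher. By length, the median log2 fold change was 0.48 under 500 bases, 0.26 from 500 to under 800 bases and 0.15 from 800 bases with all libraries, and 0.10, -0.04 and -0.02 without that replicate. Leaving out single Kmt2a+/LSL libraries gave counts of 5 to 7 (against 1.11 to 1.48% of all genes). Leaving out Kmt2a+/+ replicate 1 gave 19 members (against 3.89% of all genes), with 1 gene called, which was no member.

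Among the 3 members with the smallest p in this comparison, Rps21, a small-subunit protein, had 181, 120 and 385 CPM in the restored libraries against 116, 97.7 and 113 in Kmt2a+/LSL. All restored libraries lay above the highest Kmt2a+/LSL library. The log2 fold change was 1.07 ± 0.35 (edgeR, unadjusted p = 0.0103) and 0.47 ± 0.24 without restored replicate 3. Rpl37, a zinc-finger protein of the large subunit, had 143, 64.95 and 230 CPM against 59.6, 64.1 and 59.0. Its groups did not overlap either, though restored replicate 2 exceeded Kmt2a+/LSL replicate 2 by less than 1 CPM. The log2 fold change of Rpl37 was 1.26 ± 0.41, and 0.77 ± 0.38 without the replicate. Rpl10, which joins the large subunit late in its assembly, was the member that was lower. It had 70.4, 140 and 130 CPM in the restored and 222, 185 and 188 in the Kmt2a+/LSL libraries, with a log2 fold change of -0.81 ± 0.25 (edgeR, unadjusted p = 0.00856). The direction turned once its near-identical copies were summed into it (0.13 ± 0.16). Exact permutation tests gave p = 0.1 for Rps21, Rpl37 and Rpl10.

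The largest log2 fold change in this comparison was that of Rps29, a short small-subunit gene. It had 65.7, 89.3 and 541 CPM in the restored and 75.4, 52.5 and 85.7 CPM in the Kmt2a+/LSL libraries. Only replicate 3 stood out, the groups overlapped, and the log2 fold change was 1.71 ± 0.65 with it and 0.12 ± 0.31 without it. Rps28, also short, went from 1.27 ± 0.53 to 0.16 ± 0.31, and Rps27 from 0.89 ± 0.32 to 0.43 ± 0.27. Rpl35a, a large-subunit protein, had 174, 137 and 325 CPM against 125, 117 and 132, so that its groups did not overlap.

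The restored libraries were also compared with the Cre controls, which share nestin-Cre and differ in the LSL allele. No member and no gene (0%) passed in edgeR, and DESeq2 called 3 genes but no member. At an unadjusted p under 0.05, 6 members were below the threshold, all higher (7.14%, against 0.621% of all genes in that direction), while 0.492% of all genes were lower and 1.11% were below it in either direction. Members were higher in 79 of 84 cases, with a median log2 fold change of 0.25 against 0.00 over all genes. Libraries did not overlap for 3 members above (3.57%, against 3.10%) and 1 below (1.19%, against 3.58%). Without restored replicate 3, 1 member was below the threshold (against 1.27% of all genes), 34 of 84 were higher and the median was -0.06. The count was 17 without restored replicate 2 (against 1.73% of all genes), 12 without Kmt2a+/+ replicate 1 (against 3.23% of all genes) and 0 to 1 when a single Cre control was left out (against 0.744 to 1.3% of all genes).

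Rps13, a small-subunit protein, had the smallest p in this comparison. It had 210, 173 and 348 CPM in the restored and 170, 140 and 166 in the Cre control libraries, which did not overlap. Its log2 fold change was 0.62 ± 0.23 (edgeR, unadjusted p = 0.0212) and 0.27 ± 0.17 without restored replicate 3. Rps13-ps2, a near-identical copy, had 777, 1229 and 0 counts in the restored and 1402, 1369 and 1427 in the Cre control libraries. With its copies added, Rps13 had 249, 219 and 348 CPM against 227, 199 and 223, the groups overlapped and the log2 fold change was 0.33 ± 0.18. Rpl27 had 251, 163 and 278 CPM against 166, 156 and 164, and Rps27 had 277, 142 and 446 against 177, 153 and 179. In both genes replicates 1 and 3 of the restored group were high, while replicate 2 lay among the controls for Rpl27 and below them for Rps27. With its copies, Rpl27 had 325, 254 and 372 CPM against 261, 237.5 and 267. Both comparisons of the restored group use the same 3 libraries, so their counts are not independent.

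Whether the LSL allele acted differently with nestin-Cre was tested as an interaction over the 4 genotypes. No member and no gene (0%) passed in edgeR, and the lowest adjusted p of a member was 0.9999 (edgeR, Benjamini-Hochberg), while DESeq2 called 10 genes but no member. At an unadjusted p under 0.05, 10 members were below the threshold, all with a positive interaction (11.9%, against 1.11% of all genes in that direction and 1.73% in both). The median over members was 0.35, against 0.00 over all genes, and 64 of 84 were positive. The smallest p-values were those of Rpl39 (1.75 ± 0.62), Rpl37 (1.60 ± 0.58) and Rpl27 (0.78 ± 0.29). For Rpl39, Kmt2a+/+ replicate 1 (398 CPM) and restored replicates 1 and 3 (260 and 312 CPM) were the high libraries, and the other 9 lay between 109 and 156. Without restored replicate 3, 3 members were below the threshold (against 1.51% of all genes) and the median was 0.05. The count was 20 without Kmt2a+/+ replicate 2 (against 3.16% of all genes) and 17 without restored replicate 2 (against 1.97% of all genes). It was 4 without Kmt2a+/LSL replicate 2 (against 1.33%), Cre control replicate 1 (1.61%) or Cre control replicate 2 (1.21%), 5 without Kmt2a+/LSL replicate 1 (1.33%) and 6 without Cre control replicate 3 (1.3%).

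**Figure D4:**
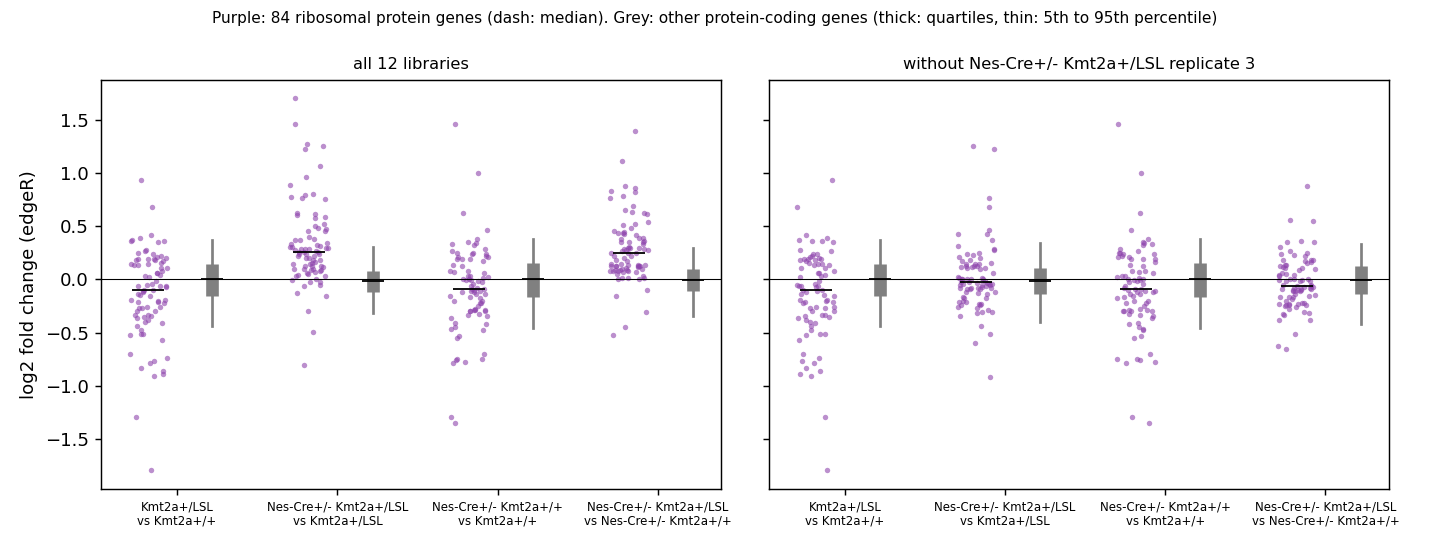
Log2 fold changes from edgeR (y axis) of the 84 members (purple points, dash at the median) beside other protein-coding genes (grey, thick bar for quartiles and thin bar for the outer percentiles) in the 4 comparisons, with all 12 libraries (left) and without restored replicate 3 (right). The medians of 0.26 and 0.25 in the comparisons of the restored group move to -0.03 and -0.06 without that library.

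Paralogs of ribosomal proteins were compared with their main genes. Rpl22, an RNA-binding protein of the large subunit, had 179 to 314 CPM in 11 libraries and 672.5 in Kmt2a+/+ replicate 1. Its paralog Rpl22l1 had 2.32, 5.13 and 6.73 CPM in Kmt2a+/+ and 8.69 to 9.82 in Kmt2a+/LSL. In the Cre controls it had 9.10, 8.08 and 11.3 CPM, and in the restored libraries 3.74, 8.28 and 17.8. Kmt2a+/+ lay below both of the other non-restored genotypes without overlap. The log2 fold changes against it were 0.94 ± 0.50 in Kmt2a+/LSL and 1.00 ± 0.50 in the Cre controls (edgeR, unadjusted p = 0.0854 and 0.0698), and without Kmt2a+/+ replicate 1 they were 0.62 ± 0.46 and 0.67 ± 0.47. These comparisons share the Kmt2a+/+ libraries.

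Rps27rt is a retrotransposed copy of Rps27 and its coding sequence of 252 bases was identical to that of Rps27 in the GENCODE transcripts (GRCm38), whereas Rps27 and Rps27l matched in 73.2% of 250 aligned bases. Of the 31-base words of Rps27rt, 92.7% also occurred in other genes, so that reads of these genes are hard to tell apart. Coding bases 6 to 35 are shown because Rps27l differs from both others there, with the bases that differ between Rps27 and Rps27l in capitals.
Rps27: TctCgcAaAGgatctCCtTcaTccCtcTCC
Rps27rt: TctCgcAaAGgatctCCtTcaTccCtcTCC
Rps27l: CctGgcTaGAgatctGTtAcaCccTtcCTT
Rps27 was measured at 113 to 446 CPM and Rps27rt at 3.65 to 26.8 CPM. In restored replicate 3, Rps27 had its highest value (446) and Rps27rt its lowest (3.65), and in Kmt2a+/+ replicate 1 Rps27 had its lowest (113) and Rps27rt its highest (26.8).

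The other pairs differed in how far their members lay apart. Rpl7l1 had 67.2 to 81.0 CPM in 10 libraries, with 39.9 in Kmt2a+/+ replicate 1 and 64.8 in restored replicate 1, while Rpl7 had 665 to 856 CPM over all 12. Rpl36a and Rpl36al, whose coding sequences matched in 87.7% of 318 bases, had 46.7 to 225 and 45.4 to 117 CPM. Rpl3 had 790 to 1126 CPM, and its paralog Rpl3l had at most 0.397 CPM and was at 0 in Kmt2a+/+ replicate 1 and Kmt2a+/LSL replicate 1, which allows up to 3 counts in each.

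**Figure D5:**
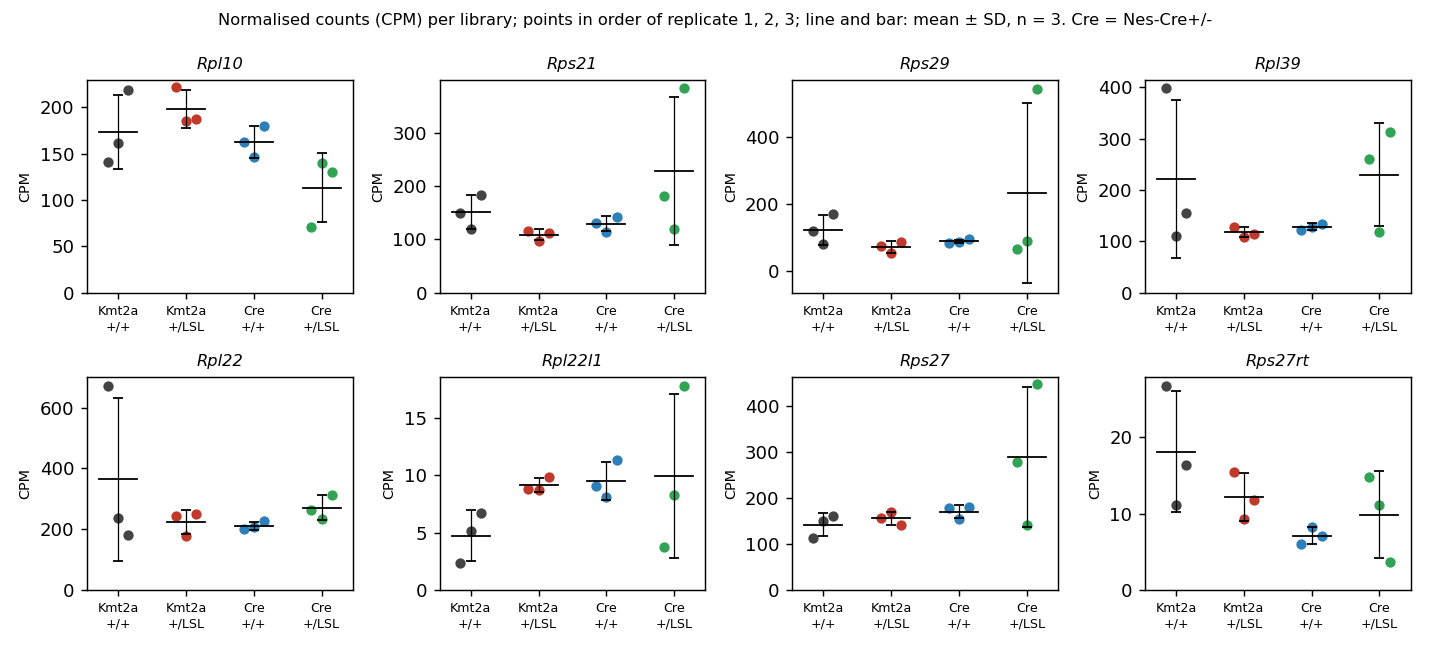
CPM (y axis) of 8 named members in each library, with points in order of replicate 1, 2 and 3 in each genotype (x axis) and the mean ± SD (n = 3) as a line and bar. The restored group spreads most in Rps29 (65.7 to 541 CPM), and the lowest Rpl22l1 value (2.32 CPM) is that of Kmt2a+/+ replicate 1.

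Reads of these mRNAs are shared with many copies in the genome. The share of a member's 31-base words that occurred in other genes had a median of 27.0% and reached 94.1% in Rpl36. Near-identical copies, taken as genes with at least 80% of their words in a member, numbered 63 for 40 members, and 19 of them had 1000 counts or more. For 6 copies the counts exceeded those of the member. The copy Gm15500 held 181514 counts over the 12 libraries against 11674 for Rpl5 itself, Gm10275 held 83943 against 4491 for Rpl12, and Rps12-ps3 held 19268 against 229 for Rps12. The assignment varied between libraries: of the 19 copies, 8 were at 0 in at least 1 library. Rps6-ps4 had 2517 counts or more in 11 libraries and 0 in restored replicate 3, and Rpl15-ps3 was at 0 in Kmt2a+/+ replicate 1 and restored replicates 1 and 3 and had 1591 to 2964 elsewhere.

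Rpl10 was lower in the restored than in the Kmt2a+/LSL libraries by itself, and with its copies it had 549, 466 and 655 CPM against 515, 503 and 505. Rps12 went from 1.23 ± 0.67 to -0.85 ± 0.81 in the same comparison, with 3.19 CPM in restored replicate 1 and 42.2 to 311 in the other libraries. Rpl5 with its copy had 566 to 742 CPM in 11 libraries and 1092 in Kmt2a+/+ replicate 1. For the group, 10 members were below an unadjusted p of 0.05 with copies added, all higher, while 1.57% of all genes were, the median log2 fold change was 0.23 and 75 of 84 were higher. The share of counts in restored replicate 3 was 4.26% with copies, against 2.63 to 3.48% in the other libraries.

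A list of 13 genes known from Diamond-Blackfan anaemia, a failure of red cell production caused in most cases by loss of a copy of a ribosomal protein gene, had 13 members higher in the restored than in the Kmt2a+/LSL libraries, where 74 of all 84 members were higher. Their median log2 fold change was 0.33, with a range from 0.10 (Rpl11, which binds Mdm2 together with Rpl5) to 1.71 (Rps29), and 3 were below an unadjusted p of 0.05, against 1.61% of all genes. Without restored replicate 3 the median was 0.10, 9 were higher and 0 were below the threshold in edgeR. Rps19, the gene most often affected, had 253, 261 and 497.5 CPM in the restored and 258, 232.5 and 275 in the Kmt2a+/LSL libraries. In the effect of the LSL allele the list had a median of -0.26, with 3 of 13 higher and 0 below the threshold in edgeR. The median was -0.45, with 2 below the threshold, without Kmt2a+/+ replicate 2, and 3 were below it without restored replicate 3 (against 3.52 and 1.71% of all genes). Leaving out Kmt2a+/+ replicate 1 gave a median of -0.18, with 5 of 13 higher and 1 below the threshold (against 8.95% of all genes).

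The 4 members on the X chromosome were Rpl10, Rps4x, Rpl36a and Rpl39. Rps4x was among the most even of all members, with 708 to 922 CPM over the 12 libraries. Rpl36a had 46.7, 74.0 and 225 CPM in the restored libraries and 61.8 to 140 in the others.

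Other genes of the pathway showed smaller median shifts in the restored against the Kmt2a+/LSL libraries. Among 18 other TOP mRNAs, 15 were higher, with a median log2 fold change of 0.07, among them Tpt1 (0.34 ± 0.38). Among 30 ribosome biogenesis genes, 18 were higher, with a median of 0.02 and a range from -0.19 to 0.27, led by Nip7 and Taf1b. The 14 genes of mTORC1 and TOP translation control had a median of 0.01 and were led by Tsc2 (1.497 ± 1.12) and Rheb (0.16 ± 0.23). Neither the biogenesis nor the mTORC1 list held a gene below an unadjusted p of 0.05 in edgeR. Of the 18 other TOP mRNAs, 1 was below it and higher in the restored libraries, against 1.06% of all genes in that direction. Of 77 mitochondrial ribosomal protein genes, 45 were higher, with a median of 0.02, and 1, Mrpl52 (0.56 ± 0.24), was below it. Of the 63 pseudogenes of ribosomal proteins that were tested, 37 were higher and 0 were below it. In the effect of the LSL allele, 48 of these pseudogenes were lower and 15 higher, with a median of -0.59, and 4 were below it, all lower, against 1.12% of all genes in that direction. Nestin-Cre alone, read against the same Kmt2a+/+ libraries, had 40 lower and 23 higher, with a median of -0.43. The share of counts on all ribosomal protein pseudogenes overlapped, at 0.0634 to 0.0772% in Kmt2a+/LSL and 0.0697 to 0.097% in Kmt2a+/+. None of these genes passed an adjusted p of 0.05 in any comparison in edgeR.

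In the effect of the LSL allele, 6 of 18 TOP mRNAs, 17 of 30 biogenesis genes, 9 of 14 mTORC1 genes and 44 of 77 mitochondrial ribosomal protein genes were higher, with medians of -0.05, 0.02, 0.04 and 0.04, and 0 of them were below an unadjusted p of 0.05 in edgeR. Against the Cre controls, the restored libraries were higher for 14, 26, 10 and 49 of these genes. A TOP mRNA was the only 1 of them below an unadjusted p of 0.05 in edgeR, and it was higher (against 0.621% of all genes in that direction). Fewer cells of a type and less RNA per cell cannot be told apart in such bulk samples.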

How the data were processed

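Poly(A) RNA of mNPC cultures was sequenced in 12 libraries. The authors pseudoaligned reads with kallisto 0.48.0 to the mm10 (GRCm38) transcriptome and imported them with tximport 1.30.0. DESeq2 1.42.0 also stands in the submitters' processing notes. The deposited table holds estimated counts that are whole and without scaling. They were used as they are, although the design had foreseen plain counts. Pseudoalignment divides reads among near-identical transcripts, which affects single genes here. Genotypes and replicate numbers follow the labels. Symbols, types, lengths and coding sequences came from the GENCODE annotation of GRCm38, in which 193 identifiers had no symbol.

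Tests covered the 17076 genes whose counts summed to more than 10 and were above 0 in 2 libraries or more. TMM normalization and edgeR's quasi-likelihood F-test were applied to all 12 libraries with genotype as the only term (R 4.3.3, edgeR 4.0.16, limma 3.58.1, DESeq2 1.42.0). A gene was called at a Benjamini-Hochberg adjusted p under 0.05, and the biological coefficient of variation was 0.368. CPM used the TMM-scaled library size, and log2 CPM a prior count of 2. Standard errors came from the fold change and its F statistic. Groups of 3 libraries were also set against each other by exact permutation, two-sided, for single genes. Limits from 3 counts cover counting error only. The fits were also run on simulated counts. These had less spread between libraries than the present data, so that run does not show how many changes were missed here.

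The members and lists were chosen with earlier results of these data known. Named genes are paralog pairs, stalk and scaffold genes, the 3 members with the smallest p in each comparison, the 3 highest and 3 lowest levels per length, the 3 largest and 3 smallest spreads (mean count of at least 50), Diamond-Blackfan anaemia genes and X-linked members. Some genes that this rule names are not reported here. Rps14, Rpl18, Rpl7a and Rpl38 were named after their values or sequences were seen. Near-identical copies are genes with at least 80% of their 31-base words in a member. Alternatives were size factors and the Wald test of DESeq2, other filters on low counts, a block for the replicate number, fits on the genotypes compared alone, and each library left out in turn. Leaving out 3 libraries together and summing copies were added after the data were seen.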

Additional observations from a re-analysis of the deposited data

How the results depend on the processing

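With the DESeq2 Wald test, 7 genes were called for the LSL allele, 7 for restoration, 3 for nestin-Cre, 3 for restored against Cre control and 10 for the interaction, against 0 in edgeR, and no member was among them. Leaving out single libraries gave 0 to 2 genes for the LSL allele and 0 to 1 for restoration, the highest in both without Kmt2a+/+ replicate 1. Members at an unadjusted p under 0.05 for the LSL allele numbered 1 (against 1.79% of all genes), and 3 with DESeq2 (1.90%), 2 with only the genotypes compared (0.769%), 0 with at least 10 counts in every library (1.12%) and 0 with copies summed (1.75%) in edgeR. DESeq2 gave 15 members for restoration (against 1.54% of all genes), 8 for restored against Cre control (1.03%), 14 for the interaction (1.84%) and 1 for nestin-Cre (1.58%). With Kmt2a+/+ replicate 1 and restored replicates 1 and 3 left out together, a choice made after seeing the data, members numbered 14 for the LSL allele, 6 for nestin-Cre, 2 for restoration, 0 for restored against Cre control and 5 for the interaction, where 15.3, 12.1, 3.04, 2.02 and 8.29% of all genes were below the threshold. The medians of the last 3 were then -0.0223, -0.0553 and 0.0416. Leaving out 1 library at a time gave 0 to 10 members for the LSL allele, 1 to 9 for nestin-Cre, 1 to 19 for restoration, 0 to 17 for restored against Cre control and 3 to 20 for the interaction. The shares of all genes below the threshold ranged from 1.14 to 8.95%, 0.838 to 6.09%, 1.11 to 3.89%, 0.744 to 3.23% and 1.21 to 4.06% in the same order. The medians then ranged from -0.0286 to 0.40, from -0.0617 to 0.36 and from 0.0496 to 0.45 for the last 3. They ranged from -0.16 to -0.0393 for the LSL allele and from -0.157 to 0.0329 for nestin-Cre.

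The replicate block gave 2 members for the LSL allele, 2 for nestin-Cre, 13 for restoration, 5 for restored against Cre control and 8 for the interaction, where 1.44, 1.29, 1.55, 1.05 and 1.63% of all genes were below the threshold, and called no gene. Nothing in the labels ties a replicate number to a litter or batch. Deviations of same-numbered libraries had a mean correlation of 0.0845 over 18 pairs (-0.0717 to 0.416, 5 over 0.1), against -0.0408 over 36 other pairs (4 over 0.1). The same-numbered pairs of Kmt2a+/+ with the restored libraries had 0.416, 0.294 and 0.142. The numbers were not taken to pair the samples, although these values do not settle whether they do.

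The share of counts was 2.82% in Kmt2a+/LSL and 2.86% in the Cre controls without mitochondrially encoded genes, and 2.88% and 2.95% with copies. The summed level per length was 72020 with the longest transcript. Over the named members and 4 comparisons, the libraries of the groups did not overlap in 15 cases, and in 9 with copies, where 1.53 to 3.58% of all genes did not overlap in a given direction and comparison. Several of these members were named for their p in the same comparisons. Rpl10 reversed in restoration with copies (0.13), Rps27 against the Cre controls without 3 libraries (-0.26), and Rps27l for nestin-Cre without these (0.33) or without Kmt2a+/+ replicate 1 (0.34, with a range from -1.74 to 0.34 over single libraries left out). The causes were not tested. Reversals were looked for only among the members named for their p in the comparison concerned, so other members could change direction, as Rps12 did in restoration with copies. For the remaining values of single members only the size of the shift was compared with the SD within genotypes. Total counts limit genes such as Rpl3l and Rps12, which had few reads in each library.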
